A study of Mus musculus with 30 samples.

Results

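The data set described here is a comparison of 2 bulk RNA-seq libraries of mouse cells: cells 6 days into stage III of chemical reprogramming against cells on day 12 of stage II in N2B27 medium, 1 library each. Its members were all genes that reached 1 FPKM in at least 1 of the pair, 14404 of the 35275 entries of the deposited table. FPKM, fragments per kilobase of gene scaled to a fixed library size, is a level corrected for gene length and depth. The difference between the libraries was taken on the log2(FPKM+1) scale, and a gene was called higher or lower where it reached 2-fold on that scale. The comparison shows how cells after 6 days in the last medium of the process differed from cells at the end of the stage before it.

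Both libraries are labelled as intermediate cells of the chemical reprogramming of mouse embryonic fibroblasts (MEFs) of the strain C57BL/6J-Tg(GOFGFP)11Imeg/_brcxICR, and both were made from total RNA. The MEF library is labelled as coming from E13.5 embryos. Fibroblasts were kept in stage I medium and replated on day 12, the epithelial colonies that formed were given stage II medium from day 16, and stage III medium followed from day 28. Day 12 of stage II is therefore the day of the last change of medium, and the stage III cells were taken 6 days after it. In the N2B27 arm the cells were replated on feeder cells, which are MEFs treated with mitomycin C; for the other stage II arm, whose medium is named for fetal serum and knockout serum replacement (FBS/KSR), the labels name no feeder. The labels do not say which stage II arm the stage III cells came from, and what the stage III medium contains was not stated in them. Values of the FBS/KSR library are therefore set beside many of the results. Levels are also given in a library sorted at stage II day 12 as OG+PDGFRAlow/-PECAM- (the sorted stage II library), in the day 4 control library of stage III, and at stage III day 15. A second stage III day 4 library, labelled Opt. VPA (valproic acid), is shown in the figures and quoted for trophoblast factors. In the text, day 6 means the stage III day 6 library and N2B27 the stage II day 12 library in that medium.

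Chemical reprogramming turns fibroblasts into pluripotent stem cells with small molecules in place of introduced genes. The cells pass through a state with the genes of extraembryonic endoderm, the lineage that lines the yolk sac and secretes the basement membrane of the early embryo. Trophoblast is the lineage that builds the placenta: stem cells kept by Cdx2, Eomes and Elf5 give rise to giant cells that secrete hormones of the prolactin family, to the spongiotrophoblast and to the fused cells of the labyrinth. Wnt signalling acts through beta-catenin and TCF factors and switches on its own inhibitors, of which Axin2 is the usual readout, and a GSK3 inhibitor mimics it in stem cell media. Type I interferon signalling acts through STAT and IRF factors on a short promoter element, the ISRE, and cells with exposed viral or endogenous double-stranded RNA switch on the same genes.

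Of the 14404 genes, 1439 (9.99%) were at least 2-fold higher at day 6 and 1293 (8.98%) at least 2-fold lower, and the median difference was -0.04 on the log2(FPKM+1) scale. The 5th and 95th percentiles of the difference were -1.30 and 1.46. Differences of at least 8-fold on the same scale were found for 107 genes that were higher and 37 that were lower. Counted against the FBS/KSR library, 839 of 13876 genes (6.05%) were higher and 279 (2.01%) lower. At least 2-fold above both stage II libraries were 450 of 14611 genes (3.08%), and at least 2-fold below both were 87 (0.595%). Of 221 measured transcription factors in a list of 308, 38 were higher and 43 lower, with a median of -0.09. Of long non-coding RNA genes, 54 of 412 (13.1%) were higher and 43 (10.4%) lower. The shares over all genes are the background against which the counts of each list stand. Members named as the exceptions of a list, or as the few called in it, were in part chosen after their values were seen. With 1 library a group there is no test, and the spread between cultures is unknown. Beside each fold stands an exact 95% binomial interval of the ratio of reads, which covers counting error only. In bulk RNA, fewer cells of a type and less RNA per cell cannot be told apart.

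**Figure D1:**
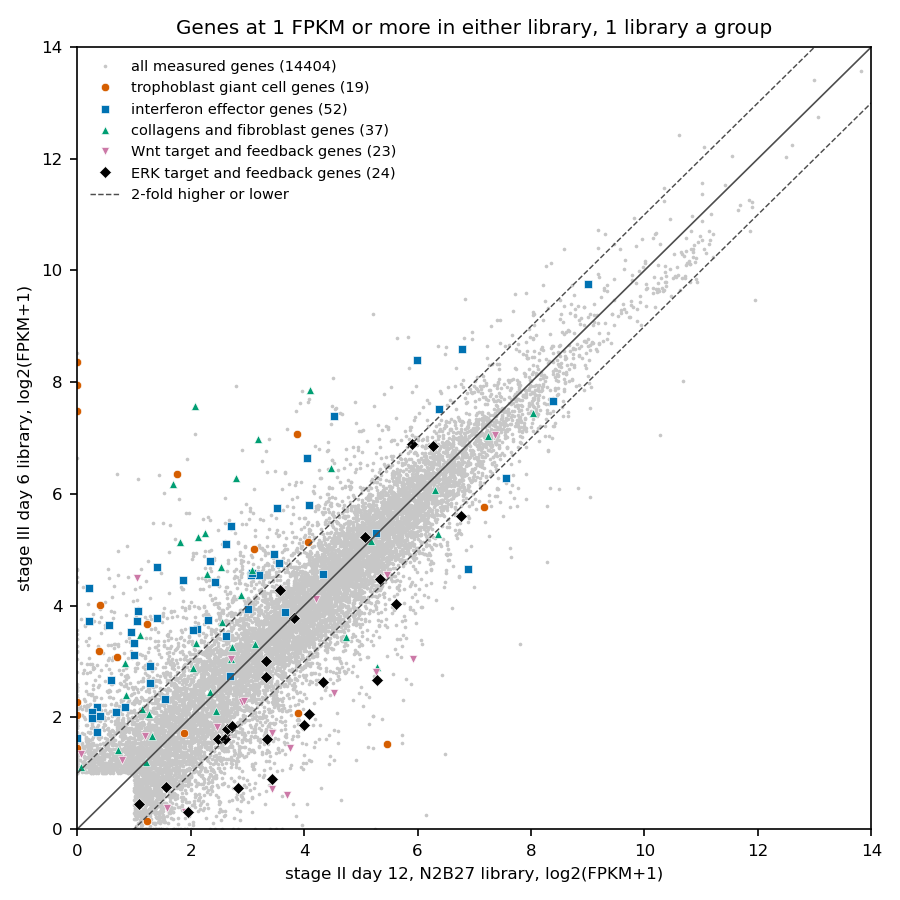
Level of each of the 14404 measured genes at stage II day 12 in N2B27 (horizontal axis) and at stage III day 6 (vertical axis), both as log2(FPKM+1), 1 library each. Grey points are all measured genes, symbols are members of 5 gene lists, and dashed lines mark 2-fold; giant cell, interferon and fibroblast symbols lie mostly above the upper line and Wnt and ERK target symbols mostly below the diagonal.

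By the steps of its FPKM values the N2B27 library held 7538760 reads, the day 6 library 9533644 and the FBS/KSR library 15294927, within the range of 6601290 to 15294927 over the 14 bulk libraries. Among genes called higher that had reads in both libraries, the counting interval lay above 1 for 1288 of 1297, and among those called lower it lay below 1 for 1200 of 1219. In the N2B27 library 138 measured genes had 0 reads, and at day 6 there were 73. For such genes a fold is given as a bound, computed against a floor of 3 reads in the library at 0.

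In each listed group of trophoblast genes more members were higher than lower at day 6 than in N2B27. Of the trophoblast stem cell factors, 10 of 17 measured members were higher and 2 were lower, with a median difference of 1.38 on the log2 scale, where the median of all genes was -0.04. With FBS/KSR as the base 5 of 17 were higher and 2 lower (median 0.76). Above both stage II libraries by 2-fold were 4 of 17 members, and below both 1. Eomes, a T-box factor that keeps trophoblast stem cells, stood at 3.99 FPKM in N2B27 and 30.4 at day 6, 7.62-fold higher (6.06 to 9.71). Elf5, the factor that commits cells to the trophoblast, stood at 2.79 and 49.2 FPKM (17.7-fold higher, 12.5 to 25.9). Tfap2c, an AP-2 factor shared by trophoblast and germ cells, stood at 11.6 and 83.4 FPKM (7.19-fold higher, 6.21 to 8.37). These factors were also above the FBS/KSR library, Tfap2c by less than 2-fold, where the levels were 5.61, 9.37 and 53.6 FPKM in the same order. The related Tfap2a stood at 1.83 FPKM in N2B27, 3.45 in FBS/KSR and 12.1 at day 6, 6.62-fold higher than N2B27 (4.78 to 9.38). Hand1, which drives the giant cell fate, stood at 13.6 and 133 FPKM, and Gata3 at 2.46 and 59.2, with 78.1 and 26.4 FPKM in FBS/KSR. The members lower at day 6 were Esrrb and Sox21, both of which also serve other stem cells. Esrrb stood at 96.9 FPKM in N2B27, 35.4 in FBS/KSR and 14.6 at day 6, at least 2-fold below both stage II libraries.

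Cdx2, the first factor of the trophoblast and also a gut and Wnt-responsive gene, was not called. Its level was 43.2 FPKM in N2B27, 22.3 at day 6 and 3.38 in FBS/KSR, so that day 6 lay between the stage II libraries. On the log2 scale the difference from N2B27 was -0.92, just short of 2-fold. Id2, an inhibitor of basic helix-loop-helix factors present in trophoblast stem cells, stood at 11.3 FPKM in N2B27, 5.56 in FBS/KSR and 51.1 at day 6, 4.53-fold higher than N2B27 (3.69 to 5.61). Its relatives Id1 and Id3 went the other way or were not called: Id1 stood at 73.2 and 25.8 FPKM and was 2.83-fold lower (2.44 to 3.29), and Id3 at 44.3 and 35.8.

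Hormones and enzymes of trophoblast giant cells had 14 of 19 measured members higher and 4 lower, with a median difference of 2.28. That median was 1.15 with a pseudocount of 5 and 1.26 without the filter on low values. Prl7a1, of the prolactin family of placental hormones, was at 0 reads in N2B27 and at 328 FPKM at day 6, at least 757-fold higher, and stood at 421 FPKM on day 15. Prl3d1, placental lactogen I, stood at 0.312 and 15.1 FPKM (48.2-fold higher, 13.1 to 403), and Plac1, an X-linked placental gene, at 2.40 and 81.2 FPKM (33.8-fold higher, 21.5 to 56.5). The members lower than in N2B27 were Prl2c2, Prl2c3, Prl6a1 and Stra13, a symbol that has been used for more than one gene. Prl2c2, proliferin, stood at 43.1 FPKM in N2B27 and 1.88 at day 6, 22.8-fold lower (13.6 to 41.4). Prl2c2, Prl2c3 and Prl2c5, and likewise Prl3d1 to Prl3d3, are near-identical copies, so the split of reads between single members is uncertain. Cyp11a1, which makes pregnenolone from cholesterol, stood at 0.305 and 8.09 FPKM (26.5-fold higher, 10.1 to 98.6), and Hsd17b2, from the list of steroid enzymes, which inactivates oestradiol and testosterone, at 0.518 and 8.85 FPKM (17.1-fold higher, 7.10 to 53.7).

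The giant cell list had the largest shift of its median between the base libraries. Against FBS/KSR, 3 of 23 members were higher, 10 lower and the median was -0.35. Prl3d1 stood at 41.1 FPKM in FBS/KSR, above its day 6 level, and Plac1 at 52.4. Above both stage II libraries stood 3 of 24 members and below both 2. Those above both were Prl2c5, Ctsll3 and Adm, and those below both Prl2c2 and Prl2c3. Ctsll3, a member of the placental cathepsin cluster, was at 0 reads in N2B27, 0.491 FPKM in FBS/KSR and 247 at day 6, at least 827-fold higher than N2B27. Its level was 289 FPKM in the sorted stage II library, 31.6 in the day 4 control and 9.60 on day 15. Its neighbour Ctsj went the other way between the bases, at 0 reads in N2B27, 88.4 FPKM in FBS/KSR and 1.73 at day 6. The day 6 library thus shared one placental cathepsin with the sorted library and had little of another that was abundant in FBS/KSR.

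Among ectoplacental cone and spongiotrophoblast genes, 4 of 10 measured members were higher and 0 lower (median 0.93), while against FBS/KSR 2 of 16 were higher and 6 lower (median -0.23). Ascl2, an imprinted factor of the spongiotrophoblast and also a Wnt target, stood at 1.07 FPKM in N2B27 and 21.5 at day 6, 20.1-fold higher (11.6 to 38.1). Phlda2, an imprinted gene that limits placental growth, stood at 9.11 and 36.4 FPKM (4.00-fold higher, 2.96 to 5.49) and at 6.22 in FBS/KSR. Nrk, a placental kinase gene on the X chromosome, was 7.76-fold higher than N2B27 (6.51 to 9.31) but level with FBS/KSR, at 28.6 against 28.5 FPKM. Tpbpa, the classical marker of the spongiotrophoblast, had 0 reads at day 6.

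Labyrinth and syncytiotrophoblast genes had 9 of 18 higher and 2 lower (median 1.07), against FBS/KSR 6 of 17 were higher and 0 lower (median 0.30), and 6 of the members at 1 FPKM in any of the 3 libraries lay above both stage II libraries. Syna, a captured retroviral envelope gene whose protein fuses trophoblast cells, stood at 0.364 FPKM in N2B27, 2.38 in FBS/KSR and 7.87 at day 6, 21.6-fold higher than N2B27 (10.8 to 50.8). Gjb2, a connexin gene through which glucose passes between the placental layers, stood at 3.64, 12.2 and 45.6 FPKM in the same order (12.5-fold higher, 9.77 to 16.3). Itga7, an integrin of trophoblast that binds laminin, stood at 2.31, 5.91 and 35.5 FPKM (15.4-fold higher, 12.1 to 19.8). Pparg, a nuclear receptor needed for the labyrinth, was 12.7-fold higher than N2B27 (6.23 to 29.9) and close to FBS/KSR, at 7.41 against 7.36 FPKM. Gcm1, the master factor of syncytial fusion, was low in both, at 1.37 FPKM in N2B27 and 0.774 at day 6.

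Simple-epithelium keratins, which mark trophoblast as well as other epithelia, were higher on either base. Of the trophoblast keratins and junction genes, 8 of 17 were higher and 0 lower (median 0.90), and against FBS/KSR 8 of 17 were higher and 0 lower (median 0.87). Krt7 stood at 21.4 FPKM in N2B27, 50.6 in FBS/KSR and 191 at day 6, 8.92-fold higher than N2B27 (7.87 to 10.2). Krt8 and Krt18, which pair into the first filaments of the embryo, stood at 381 and 325 FPKM in N2B27, 530.1 and 453 in FBS/KSR and 1343 and 1128 at day 6. Cldn7, a tight junction claudin, was 7.03-fold higher (5.94 to 8.37), but claudins and tight junction genes as a list were balanced. Of 18 measured members 3 were higher and 3 lower (median -0.10). Against FBS/KSR 5 of 17 were higher and 0 lower (median 0.62). Cdh1 and Epcam, which hold epithelia together, were not called, at 344 and 340.5 FPKM in N2B27 and 272 and 232 at day 6.

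Levels across the series placed these genes. In the sorted stage II library Elf5, Gata3, Eomes and Cdx2 stood at 45.6, 266, 90.5 and 187 FPKM. In the day 4 control library of stage III they stood at 3.47, 28.8, 7.32 and 19.4, and on day 15 at 11.5, 40.3, 6.42 and 6.53. Each of the 4 factors was lower in the day 4 control than at day 6 and, save for Elf5, higher in the sorted library than in N2B27, the day 4 control or day 6. In the Opt. VPA library of day 4, Elf5, Gata3, Eomes and Cdx2 stood at 2.12, 24.2, 5.12 and 38.9 FPKM. Cdx2 was thus higher there than at day 6. Of 11 trophoblast markers 8 were higher at day 6 than in N2B27 and 0 lower, and their sum was 90.6 FPKM in N2B27, 235 in FBS/KSR, 862 in the sorted library, 75.8 in the day 4 control and 530 at day 6.

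**Figure D2:**
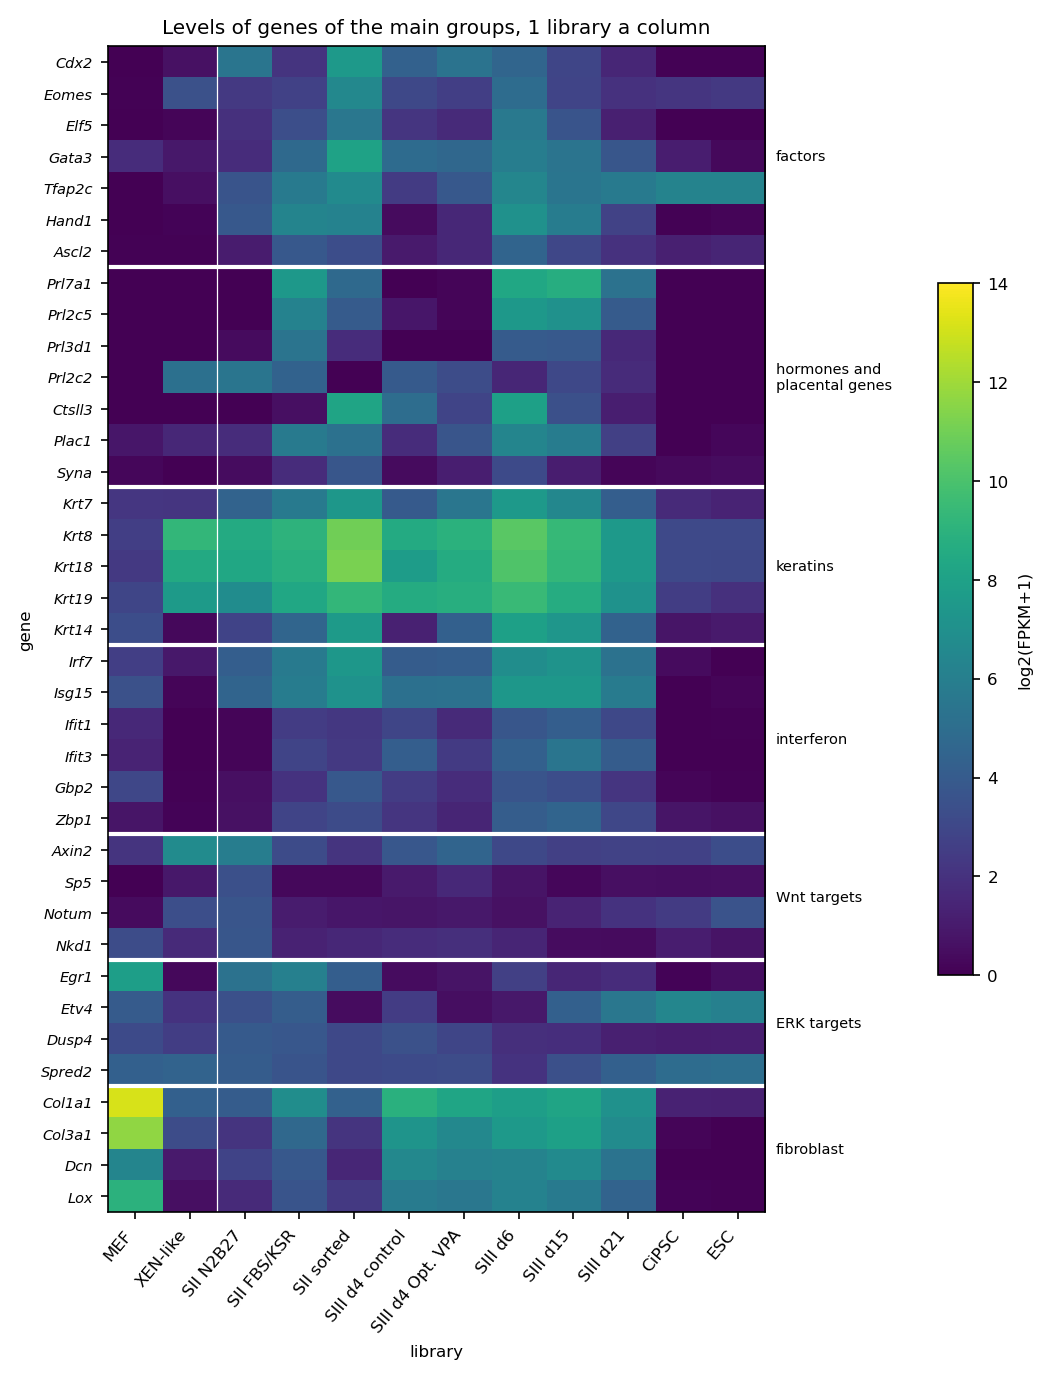
Levels of 37 genes of the groups described here (rows) in 12 bulk libraries (columns, 1 library each), coloured by log2(FPKM+1). Trophoblast factors and keratins are bright in the sorted stage II and day 6 columns, and interferon genes at days 6 and 15. Prl7a1 and Prl3d1 are bright in the FBS/KSR, day 6 and day 15 columns. Prl2c2 is instead brighter in the N2B27 column than at day 6. Wnt target genes are bright in the N2B27 column, with Axin2 also bright in the XEN-like column.

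Interferon-stimulated genes had more members called higher than any other list. Of 52 measured effectors, 41 were higher and 2 lower, with a median difference of 1.63. Against FBS/KSR the same list had 8 of 52 higher and 1 lower with a median of 0.72, so most members were above that library by less than 2-fold. Above both stage II libraries by 2-fold were 8 of 52 members and below both 1. Those above both were Isg15, Ifit1, Ifit2, Ifit3, Rsad2, Cmpk2, Iigp1 and Gbp2. The promoters of 5 effectors are printed here because the letters of the element through which interferon signals can be seen in them. Each run is 120 bases of the RefSeq promoter table (build GRCm38.p6), read 5′ to 3′ on the strand of the gene, with every match to GAAANNGAAA on either strand in capitals. Each run but that of Ifit3 ends at the base before the gene start. The window of Ifit3 is chr19:34583359-34583478 on the plus strand, of Ifit1 chr19:34640769-34640888 on the plus strand, of Isg15 chr4:156200819-156200938 on the minus strand, of Gbp2 chr3:142620543-142620662 and of Gbp3 chr3:142559924-142560043, both on the plus strand. Matches that overlap appear as 1 run of capitals, as in Isg15, which holds 3 matches, and Gbp3, which holds 2.
Ifit3: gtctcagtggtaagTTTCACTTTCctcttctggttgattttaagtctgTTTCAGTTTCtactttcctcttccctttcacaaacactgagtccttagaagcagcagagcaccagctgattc
Ifit1: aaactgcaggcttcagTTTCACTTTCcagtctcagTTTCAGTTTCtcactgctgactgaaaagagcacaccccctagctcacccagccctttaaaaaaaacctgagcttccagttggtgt
Isg15: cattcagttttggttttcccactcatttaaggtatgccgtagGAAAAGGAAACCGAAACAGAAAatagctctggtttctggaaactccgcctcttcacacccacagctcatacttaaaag
Gbp2: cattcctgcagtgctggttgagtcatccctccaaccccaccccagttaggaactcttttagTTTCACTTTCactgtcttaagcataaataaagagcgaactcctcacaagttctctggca
Gbp3: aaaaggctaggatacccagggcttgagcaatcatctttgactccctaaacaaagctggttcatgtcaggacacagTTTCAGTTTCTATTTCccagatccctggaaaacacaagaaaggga

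The letters GAAANNGAAA, searched on both strands with overlapping matches allowed, were found in 943 of 27025 promoter windows of the table (3.49%), each reaching from 250 bases before to 50 bases after the gene start. They were found in 20 of 39 effectors that have a window (51.3%) and in 289 of 10302 measured genes that have one (2.81%). In the printed promoters the match nearest to the gene start lay 113 bases before it in Ifit3, 76 in Ifit1, 57 in Isg15, 50 in Gbp2 and 30 in Gbp3. Effectors with the letters had 16 of 20 higher at day 6 and a median difference of 1.66, and effectors without them 15 of 19 and 1.62. Among all genes called higher 53 of 991 windows held the letters (5.35%), among those called lower 21 of 838 (2.51%) and among those not called 215 of 8473 (2.54%). The 53 include the 16 higher effectors with the letters, so that share is not separate from theirs. A match is a run of letters and not a shown site of binding.

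Effectors differed most in their N2B27 levels. Ifit1, which binds RNA without a proper cap, stood at 0.150 FPKM in N2B27, 4.65 in FBS/KSR and 12.2 at day 6, 81.4-fold higher than N2B27 (27.6 to 397). Ifit3, its partner, stood at 0.152, 6.26 and 18.8 FPKM in the same order (124-fold higher, 34.0 to 1026), with a wide interval because the N2B27 value rests on few reads. Isg15, a ubiquitin-like protein, stood at 22.1 FPKM in N2B27 and 168 at day 6 (7.59-fold higher, 6.32 to 9.20). Uba7, the enzyme that activates Isg15 for conjugation, stood at 1.66 and 24.8 FPKM (15.0-fold higher, 9.84 to 23.8). Usp18, which removes Isg15 again and damps the receptor, stood at 5.10 and 34.7 FPKM (6.80-fold higher, 5.29 to 8.88). The guanylate-binding proteins Gbp2 and Gbp3, which attack the membranes around pathogens, were 24.4-fold higher (11.0 to 67.3) and 12.7-fold higher (7.38 to 23.5). The 2 effectors that were lower were Ifi27 and Ube2l6, the latter the conjugating enzyme of the Isg15 pathway, and Ube2l6 was also the member below both stage II libraries.

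Receptors, sensors and transcription factors of the pathway had fewer calls than its targets. Of 18 ligands, receptors and sensors measured, 7 were higher and 0 lower (median 0.84), and of 18 signalling factors 5 were higher and 1 lower (median 0.28). With FBS/KSR as the base 1 of 18 and 1 of 17 were higher and 0 lower in either list (medians 0.40 and 0.46). Zbp1, a sensor of nucleic acids in the Z form, stood at 0.523 FPKM in N2B27, 6.38 in FBS/KSR and 16.8 at day 6, 32.0-fold higher than N2B27 (16.1 to 74.8). Ddx58, which encodes the RNA sensor RIG-I, was 5.50-fold higher (4.46 to 6.83), and its level in FBS/KSR, 44.7 FPKM, was close to that at day 6, 46.0. Irf7, the factor that amplifies type I interferon, stood at 17.3 and 115 FPKM (6.69-fold higher, 5.63 to 7.99) and at 169.6 in the sorted stage II library. Irf9, which carries the interferon signal to the promoter, was 2.19-fold higher (1.93 to 2.50). Irf8, a factor of blood cells, was the member that was lower, at 3.71 and 0.799 FPKM, and stood at 0.789 in FBS/KSR. Day 15 levels of Irf7 and Ifit3 were 145 and 41.9 FPKM, above those of day 6 in both cases.

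In the MHC class I pathway, which shows peptides to T cells, 7 of 25 measured genes were higher and 3 lower (median 0.69), and against FBS/KSR 1 was higher and 1 lower (median 0.32). B2m, the light chain, stood at 204 FPKM in N2B27 and 615 at day 6 (3.01-fold higher, 2.84 to 3.20), and Tapbp, the peptide-loading protein tapasin, at 81.2 and 398 (4.90-fold higher, 4.51 to 5.33). H2-Q7 was 8.73-fold lower (6.69 to 11.6), at 31.7 and 3.63 FPKM, and the proteasome subunit gene Psmb9 was 2.88-fold lower (2.36 to 3.52). The class II gene H2-Eb1 stood at 51.9 FPKM in N2B27, 16.1 in FBS/KSR and 2.21 at day 6, 23.4-fold lower than N2B27 (15.7 to 36.6). B2m and Tapbp were close to FBS/KSR, where they stood at 530.4 and 307 FPKM.

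Chemokines and cytokines had 12 of 20 measured members higher and 1 lower (median 1.40), and 9 of 20 were also higher against FBS/KSR (median 0.84). Il6 had 0 reads in N2B27 and stood at 0.601 FPKM in FBS/KSR and 10.8 at day 6, at least 29.5-fold higher than N2B27. Cxcl5, which attracts neutrophils, stood at 0.561 and 19.4 FPKM (34.6-fold higher, 16.6 to 86.7). Ccl2 and Ccl7, which attract monocytes, were 3.85-fold higher (3.28 to 4.53) and 4.61-fold higher (3.61 to 5.95). Ccl2, Ccl7 and Cxcl5 stood at 119, 53.3 and 18.3 FPKM in the day 4 control and at 3.55, 0.927 and 0.320 in the sorted stage II library. These chemokines were thus low in the sorted cells, where Irf7 was higher than at day 6.

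Pluripotency factors were mixed and mostly uncalled. Of 28 measured naive factors, 3 were higher and 6 lower (median -0.27, and -0.38 against FBS/KSR), and of 15 formative and primed factors 1 was higher and 2 lower (median -0.42). Of the 28 naive factors 1 lay 2-fold above both stage II libraries and 3 lay 2-fold below both. The naive factors higher than in N2B27 were Nanog, Klf2 and Fbxo15. Nanog, a core factor of the pluripotent state, stood at 0.576 FPKM in N2B27, 6.03 in FBS/KSR and 8.96 at day 6 (15.6-fold higher than N2B27, 8.01 to 34.6). Pou5f1 stood at 149 FPKM in N2B27, 249.9 in FBS/KSR and 138 at day 6, with a ratio to N2B27 whose interval spans 1. Sox2 stood at 9.16, 10.4 and 8.41 FPKM in the same order. Among 7 pluripotent markers 1 was called higher, Nanog, and 1 lower, Esrrb. Esrrb stood at 96.9 FPKM in N2B27, 35.4 in FBS/KSR and 14.6 at day 6. Klf4 was lower by less than the 2-fold line, at 377 and 201 FPKM, while Klf2, its relative in the same family, stood at 3.73 and 21.2 (5.67-fold higher, 4.24 to 7.74) and at 248 in the sorted stage II library. Tbx3, a factor that also serves endoderm, was 3.10-fold lower (2.82 to 3.42), and Tcl1, a cofactor of the kinase Akt, was 6.02-fold lower (3.73 to 10.2) and lower again against FBS/KSR, where it stood at 45.1 FPKM. Gbx2, a homeobox gene that responds to LIF, was at 5.06 FPKM in N2B27 and at 0.273 in FBS/KSR and 0.188 at day 6.

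Genes of the 2-cell embryo were lower than in N2B27, with 2 of 26 measured members higher, 15 lower and a median of -1.07. Against FBS/KSR 1 of 23 was higher and 0 were lower, with a median of 0.15. Tcstv1 stood at 26.5 FPKM in N2B27, 6.79 in FBS/KSR and 6.32 at day 6, 4.18-fold lower than N2B27 (3.16 to 5.61). Zscan4e, of the telomere-acting Zscan4 cluster, was 3.46-fold lower (2.69 to 4.50), and the deubiquitinase gene Usp17le was 3.17-fold lower (2.54 to 3.98), though above its FBS/KSR level, at 7.35 against 4.62 FPKM. Pramel6, which lowers DNA methylation in naive cells, went the other way: it stood at 0.559 FPKM in N2B27, 0.551 in FBS/KSR and 13.8 at day 6 (24.7-fold higher, 9.41 to 92.1). Members of the Zscan4, Usp17l and Tcstv families are near-identical copies, so levels of single members are uncertain. The summed 2-cell markers stood at 253 FPKM in N2B27, 106 in FBS/KSR, 703 in the sorted library and 91.6 at day 6.

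Most extraembryonic endoderm factors were not called, with 3 of 12 measured members higher and 3 lower (median -0.26). Gata6 stood at 46.1 FPKM in N2B27 and 46.8 at day 6, Sox17 at 135 and 116, and Gata4 at 261 and 161, none of them called. Sox7, a relative of Sox17 in parietal endoderm, was 4.75-fold lower (3.68 to 6.19), at 11.6 and 2.45 FPKM. Foxq1, a forkhead factor, stood at 7.50 and 28.4 FPKM (3.79-fold higher, 3.17 to 4.54) but at 47.3 in FBS/KSR. In FBS/KSR Gata6, Sox17, Gata4 and Sox7 stood at 92.0, 211, 342 and 9.18 FPKM, so all 5 factors were lower at day 6 than in that library.

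The basement membrane made by parietal endoderm followed the base library in the same way. Of 18 parietal endoderm matrix genes, 7 were higher than in N2B27 and 1 lower (median 0.83), whereas against FBS/KSR 2 were higher and 3 lower (median -0.64). Lamb1 and Lamc1, the laminin chains of every early basement membrane, stood at 577 and 633 FPKM in N2B27, 2379 and 2993 in FBS/KSR and 1344 and 1607 at day 6. Sparc, which binds collagen IV, stood at 1558, 9164 and 5514 FPKM. Day 6 thus lay between the stage II libraries for these genes. Hspg2, the heparan sulfate proteoglycan perlecan, was below both, at 122 FPKM in N2B27, 146 in FBS/KSR and 32.7 at day 6 (3.73-fold lower than N2B27, 3.58 to 3.89). Lama5 was 2.76-fold lower (2.61 to 2.91) but near its FBS/KSR level, at 61.2 against 56.9 FPKM, and Col18a1, a collagen of basement membranes, 3.78-fold lower (3.27 to 4.38), while Lama4, a chain of mesenchymal and vessel membranes, was 4.23-fold higher (3.33 to 5.43).

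Visceral endoderm products had 8 of 23 measured members higher and 2 lower (median 0.12). The fibrinogen chain genes Fgb and Fgg stood at 1.05 and 0.339 FPKM in N2B27 and 12.9 and 4.09 at day 6, and at 13.2 and 11.9 in FBS/KSR. Slc40a1, the iron exporter ferroportin, stood at 4.83, 5.88 and 33.3 FPKM in N2B27, FBS/KSR and day 6 (6.89-fold higher than N2B27, 5.20 to 9.28). It was the member that was higher against FBS/KSR as well, where 1 of 24 was higher and 8 were lower. Among gut genes S100g, a calcium-binding protein of the intestine and uterus, stood at 3934 FPKM in N2B27, 292 in FBS/KSR and 708 at day 6 (5.55-fold lower than N2B27, 5.35 to 5.77). Its level in the day 4 control was 2043 FPKM.

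**Figure D3:**
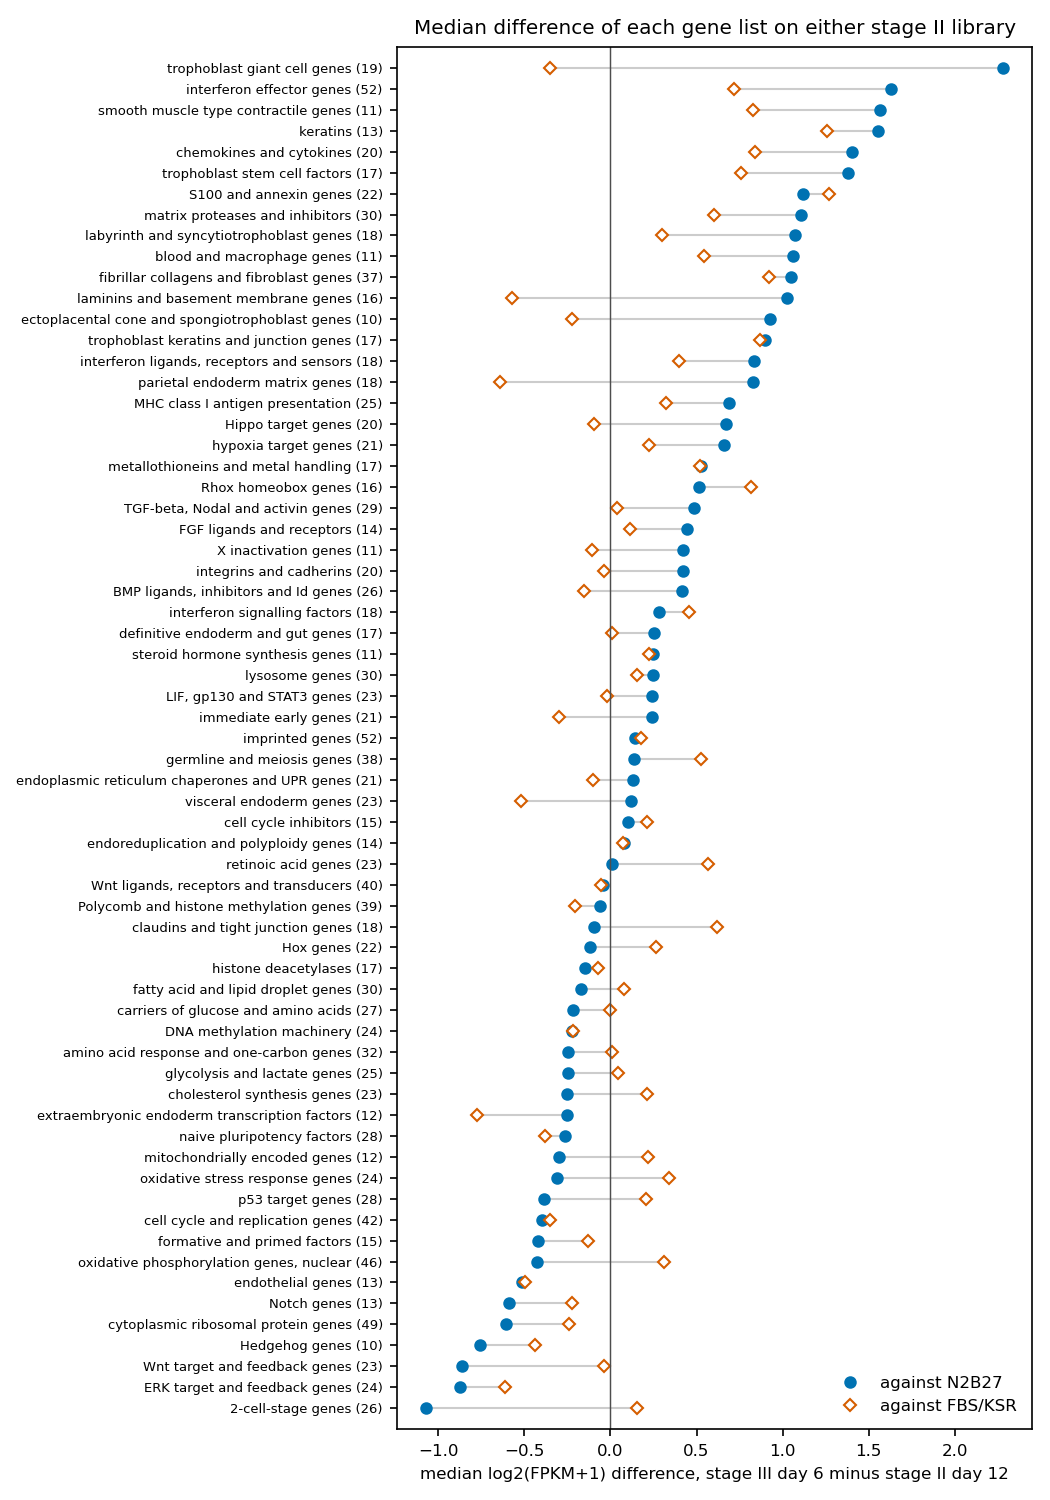
Median log2(FPKM+1) difference of stage III day 6 from stage II day 12 for each gene list with at least 10 measured members (number in brackets), against the N2B27 library (circles) and the FBS/KSR library (diamonds, members at 1 FPKM in day 6 or FBS/KSR). Interferon effectors, keratins, fibroblast genes and S100 and annexin genes are to the right of 0 on either base, ERK targets to the left, and the giant cell, laminin and 2-cell-stage lists lie on opposite sides.

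Wnt targets were lower than in N2B27. Of 23 measured targets and feedback genes, 2 were higher and 10 lower with a median of -0.86, and against FBS/KSR 1 was higher and 2 were lower with a median of -0.04. None lay 2-fold above or below both stage II libraries. Axin2 stood at 59.1 FPKM in N2B27, 8.19 in FBS/KSR and 7.28 at day 6, and at 12.9 in the day 4 control. Nkd1, an inhibitor of Dishevelled, stood at 12.4, 1.57 and 1.72 FPKM in N2B27, FBS/KSR and day 6 (7.22-fold lower than N2B27, 5.58 to 9.47). Apcdd1, an inhibitor at the cell surface, stood at 37.6, 8.95 and 6.04 FPKM (6.23-fold lower, 5.17 to 7.55). Sp5, a zinc-finger factor and direct target of beta-catenin, stood at 9.85, 0.249 and 0.649 FPKM (15.2-fold lower, 8.62 to 29.1). The high level was that of the N2B27 library for each of these genes.

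The TCF factors that carry the signal and are targets themselves were lower too. Tcf7 stood at 4.38 FPKM at day 6, 5.03-fold lower than N2B27 (3.97 to 6.43), and Lef1 at 2.75 and 0.241 (11.4-fold lower, 5.21 to 29.5). Ligands, receptors and transducers as a list were balanced, with 2 of 40 higher and 4 lower (median -0.04). Wnt7b, a ligand of the placenta, stood at 3.72 and 14.7 FPKM (3.95-fold higher, 3.17 to 4.98) and at 29.0 in the sorted stage II library, and Wls, the carrier that exports Wnt proteins, was 2.79-fold higher (2.40 to 3.26). Wnt6 was 3.36-fold lower (2.16 to 5.34). The promoter of Sp5 is shown because it holds the TCF letters CTTTGAT, in capitals, 98 bases before the gene start; the run is chr2:70474773-70474892 on the plus strand, from the same RefSeq table, and stops short of the gene start.
Sp5: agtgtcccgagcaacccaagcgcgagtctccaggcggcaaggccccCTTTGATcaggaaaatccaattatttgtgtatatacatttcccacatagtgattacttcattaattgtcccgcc

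These letters, searched on both strands, were in 3.72% of all 27025 windows and in 2.38% of those of measured genes. They were in 1 of 14 Wnt targets that have a window, in 2.03% of the windows of genes called lower and in 2.93% of those called higher.

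Targets of the ERK kinases, which carry FGF and other growth factor signals, were lower on either base. Of 24 measured targets and feedback genes, 0 were higher and 10 lower (median -0.88), against FBS/KSR 0 of 23 were higher and 6 lower (median -0.61), and 6 lay 2-fold below both stage II libraries. Egr1, an early response factor, stood at 37.7 FPKM in N2B27, 66.3 in FBS/KSR and 5.36 at day 6 (7.05-fold lower than N2B27, 6.04 to 8.26). Etv4, an ETS factor downstream of FGF receptors, stood at 9.75, 16.5 and 0.868 FPKM (11.2-fold lower, 5.63 to 25.5). The feedback inhibitors Spry4 and Spred2 were 12.5-fold lower (6.53 to 26.9) and 5.01-fold lower (3.92 to 6.48), and Dusp4, a phosphatase that removes phosphate from ERK, was 5.64-fold lower (4.34 to 7.44). Egr1 and Etv4 stood at 0.403 and 4.59 FPKM in the day 4 control and at 1.79 and 18.6 on day 15.

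Ligands and receptors of the FGF family were split, with 5 of 14 measured members higher and 3 lower (median 0.44, but -0.55 with the filter at 5 FPKM). Fgf10, a ligand that mesenchyme sends to epithelia, stood at 1.30 FPKM in N2B27, 37.2 in FBS/KSR and 20.7 at day 6 (15.9-fold higher than N2B27, 9.79 to 27.6). Fgfbp1, which frees FGFs from the matrix, stood at 3.10, 19.4 and 28.4 FPKM (9.17-fold higher, 6.18 to 14.1). Fgfrl1, a receptor without a kinase domain, was 3.49-fold lower (2.96 to 4.12), and stood at 8.24 FPKM at day 6 and 6.75 in FBS/KSR.

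Immediate early genes did not share one direction, with 4 of 21 higher and 3 lower (median 0.24). With FBS/KSR as the base 0 of 20 were higher and 3 lower (median -0.30). Fosb stood at 0.849 FPKM in N2B27, 51.0 in FBS/KSR and 21.9 at day 6, while Egr1 of the same class was lower than in either. Klf6 was 3.36-fold higher (3.17 to 3.57). The LIF pathway gene Socs3, a feedback inhibitor of STAT3, stood at 255 and 146 FPKM and was not called, and Osmr, the oncostatin M receptor, was 4.28-fold higher (2.99 to 6.29).

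Targets of the Hippo pathway factors YAP and TAZ had 8 of 20 higher and 0 lower (median 0.67), with a median of -0.09 against FBS/KSR. Ctgf stood at 16.0 FPKM in N2B27, 244 in FBS/KSR and 207 at day 6. Ankrd1 stood at 3.01, 16.0 and 15.7 FPKM. Both were thus near the FBS/KSR level. Tead4, the TEAD factor of trophoblast, stood at 12.6, 35.6 and 43.9 FPKM (3.49-fold higher than N2B27, 2.91 to 4.21), and Vgll3, a TEAD cofactor, at 1.44, 2.38 and 16.6 (11.6-fold higher, 8.24 to 16.7).

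In the TGF-beta and BMP families 6 of 29 and 7 of 26 measured genes were higher and 3 and 5 lower (medians 0.49 and 0.42). With FBS/KSR as the base 1 of 30 and 3 of 24 were higher and 2 and 4 lower (medians 0.04 and -0.15). Ltbp4, which stores latent TGF-beta in the matrix, was below both stage II libraries, at 51.4 FPKM in N2B27, 19.4 in FBS/KSR and 7.41 at day 6. Bmp7 was 12.7-fold lower (7.72 to 22.3), and Msx1, a homeobox target of BMP signals, was 6.85-fold lower (4.41 to 11.1); in FBS/KSR they stood at 0.900 and 1.85 FPKM and at day 6 at 0.767 and 1.32.

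Notch and Hedgehog genes were lower or not called. Of the Notch list 0 of 13 were higher and 5 lower (median -0.59, and -0.23 against FBS/KSR), and of the Hedgehog list 0 of 10 and 3 (median -0.76). The receptor gene Notch1 stood at 21.7 FPKM in N2B27, 8.61 in FBS/KSR and 5.11 at day 6 (4.24-fold lower than N2B27, 3.26 to 5.57), and its target Hey1 was 5.69-fold lower (2.60 to 14.2) but level with FBS/KSR, at 0.381 against 0.356 FPKM. Dlk1, an imprinted ligand-like inhibitor, stood at 7.52, 8.55 and 1.20 FPKM, lower than in either stage II library. The ligand genes Ihh and Dhh were 3.18-fold lower (2.88 to 3.52) and 11.7-fold lower (6.75 to 22.1), and Dhh stood at 0.621 FPKM at day 6 and 0.526 in FBS/KSR. In the retinoic acid list the binding protein gene Crabp1 stood at 310.0 FPKM in N2B27, 9.78 in FBS/KSR and 26.5 at day 6, and Stra6, the receptor that takes up retinol, at 215, 125 and 54.2.

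Collagens and other genes of fibroblasts were higher on either base, with 20 of 37 measured members higher than in N2B27 and 3 lower (median 1.05), 17 of 37 higher than in FBS/KSR and 0 lower (median 0.92), and 14 of 37 above both by 2-fold. Col1a1 stood at 16.1 FPKM in N2B27, 115 in FBS/KSR and 232 at day 6 (14.4-fold higher than N2B27, 12.6 to 16.6). Dcn, a proteoglycan that binds collagen, stood at 5.98 FPKM in N2B27 and 76.5 at day 6 (12.8-fold higher, 10.2 to 16.2). Its relative Lum stood at 2.49, 3.75 and 34.4 FPKM in N2B27, FBS/KSR and day 6 (13.8-fold higher than N2B27, 9.98 to 19.6). Lox, which cross-links collagen, stood at 2.23, 11.3 and 71.5 FPKM (32.0-fold higher, 25.2 to 41.3). FBS/KSR lay between N2B27 and day 6 in Col1a1, Lum and Lox. The day 4 control had 476, 92.9, 12.2 and 56.6 FPKM of Col1a1, Dcn, Lum and Lox, and the sorted stage II library 19.6, 1.79, 0.256 and 4.07.

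The members of the fibroblast list that were lower than in N2B27 were Thy1, Twist1 and Mmp2. Twist1, a mesenchymal factor, stood at 37.8 FPKM in N2B27, 4.13 in FBS/KSR and 6.49 at day 6 (5.83-fold lower than N2B27, 4.69 to 7.31). Pdgfra, shared by fibroblasts and extraembryonic endoderm, was not called, at 77.9 and 66.0 FPKM. The sum over 11 fibroblast and feeder markers was 151 FPKM in N2B27, 349 in FBS/KSR, 53.8 in the sorted library, 1041 in the day 4 control and 758 at day 6, with 6 of 11 markers higher than in N2B27, 1 lower and none at 0. Feeder fibroblasts carry the same genes, and Col1a1 stood at 9144 FPKM in the MEF library. The part of carried-over or feeder fibroblasts in these levels was not tested.

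Contractile genes of smooth muscle type, which fibroblasts and stretched epithelia also use, had 8 of 11 higher and 1 lower (median 1.57). Acta2, smooth muscle actin, stood at 2.09 FPKM in N2B27, 5.84 in FBS/KSR and 30.0 at day 6 (14.4-fold higher than N2B27, 9.83 to 21.9), and Tagln, transgelin, at 3.26, 12.5 and 29.9 (9.16-fold higher, 6.60 to 13.1). Tpm1, a tropomyosin of many cells, was 3.30-fold higher (3.14 to 3.48). Des, desmin, was the member that was lower, at 19.7 and 7.25 FPKM. The other called members thus shared the direction of the collagens.

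**Figure D4:**
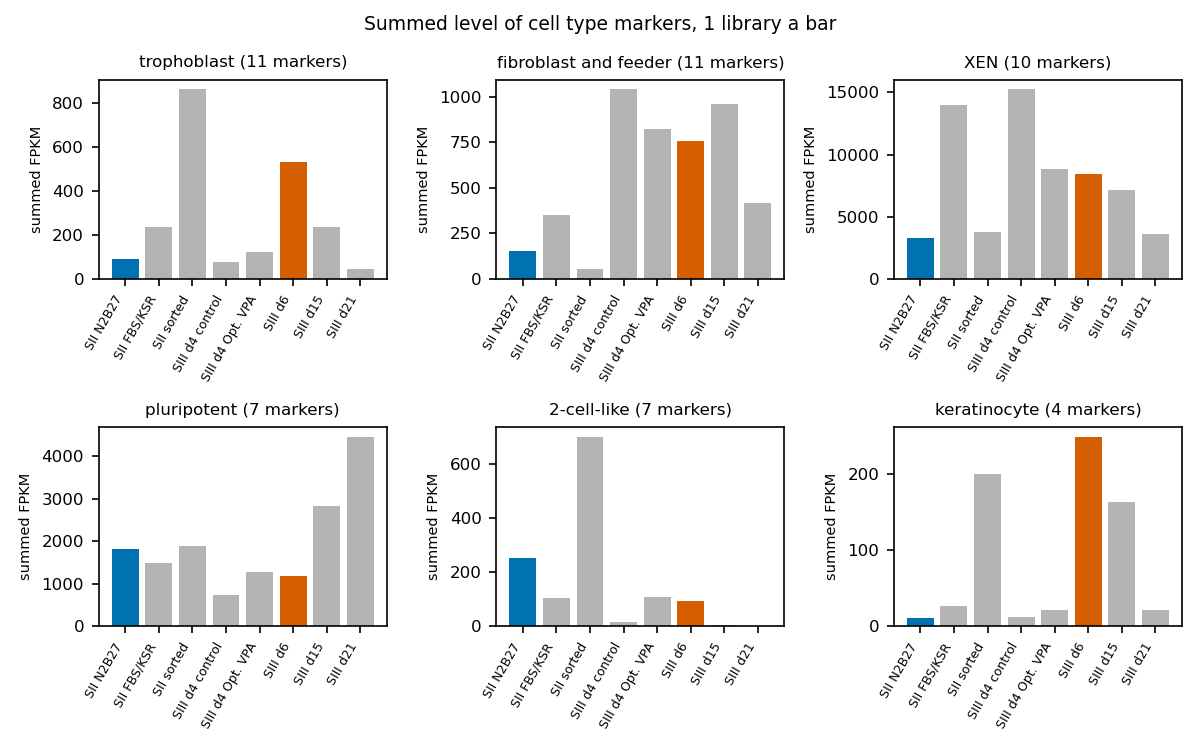
Summed FPKM (vertical axis) of the markers of 6 cell types in 8 bulk libraries, 1 library a bar, with N2B27 in blue and stage III day 6 in orange. Trophoblast markers sum to 530 FPKM at day 6 against 90.6 in N2B27, fibroblast and feeder markers to 758 against 151 and keratinocyte markers, of which Krt14 alone makes 244 FPKM at day 6, to 250 against 10.2, while 2-cell-like markers sum to 91.6 against 253.

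Keratins as a group were mostly higher. Of 13 measured keratins on the general list, 8 were higher and 1 lower (median 1.56), and 7 lay above both stage II libraries. Krt14, of the basal layer of skin and also of trophoblast giant cells, stood at 5.93 FPKM in N2B27, 22.9 in FBS/KSR and 244 at day 6 (41.2-fold higher than N2B27, 32.1 to 53.7). Krt16, of activated skin, stood at 0.424, 0.418 and 6.70 FPKM (15.8-fold higher, 6.56 to 49.8). Krt5, the usual partner of Krt14 in skin, was the member that was lower, at 3.09 FPKM in N2B27 and 0.0479 at day 6. Of the keratinocyte markers, which summed to 250 FPKM at day 6, Krt14 held nearly all, and Trp63, the factor of basal keratinocytes, stood at 0.118 FPKM. The skin proteases Klk6 and Klk7 stood at 0.652 and 0.836 FPKM in N2B27, 2.89 and 2.36 in FBS/KSR and 30.6 and 32.4 at day 6. In the sorted stage II library Krt14, Klk6 and Klk7 stood at 198, 39.3 and 79.1 FPKM.

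S100 proteins and annexins, calcium-binding proteins of the cell edge, were among the lists that were higher on either base: 13 of 22 were higher and 1 lower than in N2B27 (median 1.12), and 15 of 22 higher and 0 lower than in FBS/KSR (median 1.27). Anxa1, which binds phospholipid and dampens inflammation, stood at 36.3 FPKM in N2B27, 85.5 in FBS/KSR and 597 at day 6. S100a14 stood at 0.653, 1.10 and 22.3 FPKM (34.2-fold higher, 14.4 to 106). S100a9, a protein of neutrophils and stressed epithelia, had 0 reads in N2B27 and stood at 24.2 FPKM at day 6, at least 31.4-fold higher, and at 23.2 in the sorted stage II library. S100g was the one member lower than in N2B27.

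Matrix proteases and their inhibitors went both ways, with 17 of 30 higher than in N2B27 and 5 lower (median 1.11). Against FBS/KSR 6 of 27 were higher and 1 lower (median 0.60). All of the members lower than in N2B27 were matrix metalloproteinases: Mmp2, Mmp3, Mmp10, Mmp12 and Mmp13. Of 14 measured Mmp genes by symbol, 7 were lower and 2 higher, and their median against FBS/KSR was 0.03. The serpins of the B9 cluster, inhibitors of granzyme-type proteases that the placenta expresses, were higher. Serpinb9f stood at 0.139 FPKM in N2B27, 6.53 in FBS/KSR and 15.3 at day 6 (109.9-fold higher than N2B27, 30.1 to 912), and Serpinb9b at 6.44, 11.4 and 43.0 (6.68-fold higher, 5.66 to 7.92). Serpinb9d had 0 reads in N2B27 and stood at 8.73 FPKM at day 6. Members of this cluster are close copies, and single levels are uncertain.

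Cell cycle genes had a negative median and few calls. Of 42 cell cycle and replication genes, 1 was higher and 1 lower (median -0.40, and -0.35 against FBS/KSR). Bub1b, a mitotic checkpoint kinase, was 2.45-fold lower (2.16 to 2.78), and E2f8, a repressor that trophoblast giant cells use as they copy DNA without dividing, was 2.31-fold higher (1.83 to 2.94). Of 15 cell cycle inhibitors 4 were higher and 0 lower (median 0.10). Cdkn1c, an imprinted inhibitor needed for giant cells, stood at 22.3 FPKM in N2B27, 122 in FBS/KSR, 256 in the sorted library and 184 at day 6 (8.21-fold higher than N2B27, 7.32 to 9.24), whereas Cdkn1a stood at 215 and 225 FPKM. Of 28 p53 targets 1 was higher and 5 lower (median -0.39), with Plk2 2.09-fold lower (1.91 to 2.29) and above its FBS/KSR level, at 28.8 against 15.4 FPKM, and Sesn1 3.17-fold higher (2.44 to 4.17). With FBS/KSR as the base 3 of 28 p53 targets were higher and 0 lower (median 0.21).

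Imprinted genes had 13 of 52 measured members higher and 2 lower (median 0.14), the lower ones being Mest and Dlk1. Several of those higher are placental, among them Ascl2, Phlda2 and Cdkn1c. H19, a non-coding RNA of the placenta and embryo, stood at 2111 FPKM in N2B27, 3829 in FBS/KSR and 4753 at day 6 (2.25-fold higher than N2B27, 2.22 to 2.29), and its neighbour Igf2 at 111, 199 and 127. DNA methylation genes had 2 of 24 higher and 0 lower (median -0.22), and of 17 histone deacetylases none was called (median -0.15). Of 39 Polycomb and histone methylation genes 4 were higher, close to the share over all genes, and 1 was lower (median -0.06). With FBS/KSR as the base 0 of 39 were called either way. Cbx2 was the one lower than in N2B27, 4.05-fold lower (3.07 to 5.40), and Phf19, Bmi1, Setd7 and Suv39h2 were higher. Bmi1 stood at 12.7 FPKM in N2B27, 26.3 in FBS/KSR and 29.0 at day 6.

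In metabolism, genes of the hypoxia list had 6 of 21 higher and 0 lower (median 0.66, and 0.23 against FBS/KSR). Bnip3, which directs mitochondria to be degraded, stood at 12.0 FPKM in N2B27, 99.8 in FBS/KSR and 143 at day 6 (11.9-fold higher than N2B27, 9.26 to 15.6). Adm, the peptide adrenomedullin of trophoblast and hypoxic cells, stood at 7.71, 7.42 and 31.3 FPKM (4.06-fold higher, 3.08 to 5.43). Slc2a1 and Slc16a3, carriers of glucose and lactate, were 2.70-fold higher (2.55 to 2.87) and 2.92-fold higher (2.53 to 3.38). Nuclear genes of oxidative phosphorylation had 0 of 46 higher and 1 lower, with a median of -0.43 against N2B27 and 0.31 against FBS/KSR. Cytoplasmic ribosomal protein genes had 0 of 49 higher and 2 lower (median -0.61, and -0.24 against FBS/KSR).

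Lipid and amino acid enzymes were lower in part. Of fatty acid and lipid droplet genes 1 of 30 was higher and 6 lower (median -0.17). Fabp5, a carrier of fatty acids, stood at 198 FPKM in N2B27, 16.7 in FBS/KSR and 28.2 at day 6 (7.02-fold lower than N2B27, 6.42 to 7.69), and the desaturase and elongase genes Fads2 and Elovl6 were 3.02-fold lower (2.66 to 3.44) and 3.24-fold lower (2.97 to 3.54), with Fads2 at 23.2 FPKM at day 6 and 17.9 in FBS/KSR. Of amino acid response and one-carbon genes 1 of 32 was higher and 6 lower (median -0.25). Phgdh, the first enzyme of serine synthesis, stood at 315, 88.8 and 109 FPKM in N2B27, FBS/KSR and day 6, and Slc1a5, a glutamine carrier, at 207, 69.8 and 60.1. The high level was again that of N2B27. Slc6a14, a carrier of neutral and basic amino acids, was higher than in both, at 0.502, 0.286 and 13.9 FPKM.

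Several of the largest differences among genes at 10 FPKM or more were in genes of varied function. Entpd1, which breaks down extracellular ATP, stood at 0.626 FPKM in N2B27, 33.8 in FBS/KSR and 80.5 at day 6 (129-fold higher than N2B27, 54.9 to 397). Tppp3, a tubulin-binding protein of the uterus and tendon, stood at 1.10, 1.51 and 75.8 FPKM (68.6-fold higher, 36.0 to 151). Nppb, a natriuretic peptide, stood at 3.23, 11.5 and 133 FPKM (41.3-fold higher, 26.3 to 68.9). Each of these was higher than in both stage II libraries. Gsta1, a glutathione transferase, stood at 1.53, 0.588 and 43.6 FPKM. Entpd1, Tppp3 and Gsta1 stood at 81.5, 47.0 and 68.3 FPKM in the sorted stage II library and at 25.8, 11.1 and 2.71 on day 15. All 3 were thus higher in the sorted library than in N2B27 and lower on day 15 than at day 6.

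Among the largest negative differences, several genes were higher in N2B27 than in both FBS/KSR and day 6. The secreted phospholipase gene Pla2g2a stood at 37.3 FPKM in N2B27 and had 0 reads at day 6 and in FBS/KSR, which puts N2B27 at least 76.7-fold above day 6. Its relative Pla2g5 stood at 52.1, 3.29 and 1.90 FPKM in N2B27, FBS/KSR and day 6. Ppp2r2c, a regulatory subunit of the phosphatase PP2A, stood at 88.5, 5.47 and 1.52 FPKM (58.1-fold lower, 41.2 to 84.7), and Slc14a1, a urea carrier, at 24.1, 1.09 and 0.437. Transcription factors in this class were Sox9, at 21.9, 1.41 and 1.37 FPKM, and Pitx1, at 451, 74.5 and 67.8. Pitx1 stood at 276 FPKM in the day 4 control, so that its lower level at day 6 was not shared by every stage III library.

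Neighbouring genes called in the same direction formed 23 runs of at least 4, counted in the order of the reference gene table. The longest run of higher genes held 10 neighbours of the serpin B9 cluster at chr13:32956811-34002794 (median 2.92, and 1.05 against FBS/KSR). Further runs of higher genes held 4 genes of the Ifit cluster at chr19:34550550-34650009 (median 3.05, and 1.34 against FBS/KSR), 5 Oas1 genes on chromosome 5, 5 genes around Trim12a and Trim30a on chromosome 7, 5 genes of the Serpina3 cluster on chromosome 12 (median 3.11, and 1.52 against FBS/KSR), keratins on chromosomes 11 and 15, and 6 genes around Ctsll3 at chr13:60781887-61005925. The run with the largest median, 3.39, held 7 genes at chr11:46524251-46779578, among them Dppa1, Timd2 and Havcr1, and its median against FBS/KSR was 4.25. Runs of lower genes held 5 Zscan4 genes on chromosome 7, 4 metalloproteinase genes at chr9:7272514-7510242 (median -1.58), 13 genes, mostly predicted, on chromosome 12 (median -1.77) and the mast cell protease genes Cma2, Mcpt1, Mcpt9 and Mcpt8 at chr14:55950980-56085499 (median -3.71). Against FBS/KSR the medians of the metalloproteinase, chromosome 12 and mast cell protease runs were 0.03, 0.03 and 0.75. Cma2, a chymase, stood at 84.9 FPKM in N2B27, 0.345 in FBS/KSR, 28.3 in the day 4 control and 5.76 at day 6. Another lower run, on chromosome 1, held Wnt6 and Ihh with 4 genes between them. Clustered families share sequence, and reads of near-identical copies may be split between neighbours.

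By symbol, among families of at least 8 measured genes, the Oas family had 7 of 8 members higher, Serpinb 11 of 15, annexins 8 of 11, keratins 12 of 18 and galectins 5 of 8. The largest shares lower were those of the Camk kinases (4 of 8), the Mmp proteases (7 of 14) and the synaptotagmins (4 of 9). On the FBS/KSR base the medians of these last 3 families were 0.16, 0.03 and 0.20, and those of Serpinb and annexins 0.95 and 1.08.

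On chromosome X, 84 of 504 measured genes (16.7%) were higher and 22 (4.37%) lower, with a median of 0.15, where the autosomes had 6.09% to 11.8% higher. Against FBS/KSR it had 40 of 503 higher (7.95%) and 10 lower (1.99%), with a median of 0.06. Runs of higher X genes held 8 neighbours at chrX:53669165-56320664, among them Zfp36l3, a placental RNA-binding protein gene, and 4 at chrX:154886803-154995850, among them Magea genes. Of the Rhox homeobox cluster, expressed in placenta and germ cells, 4 of 16 were higher and 0 lower (median 0.52), with Rhox6 2.44-fold higher (2.25 to 2.65) and Rhox9 2.71-fold higher (2.47 to 2.98). Xist, the RNA of the inactive X, stood at 38.5 FPKM in N2B27, 61.8 in FBS/KSR and 61.9 at day 6. The Y-linked Ddx3y stood at 9.01, 19.5 and 23.3 FPKM, so each of the 3 libraries held reads of both, and the labels used here do not give the sex of the embryos.

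**Figure D5:**
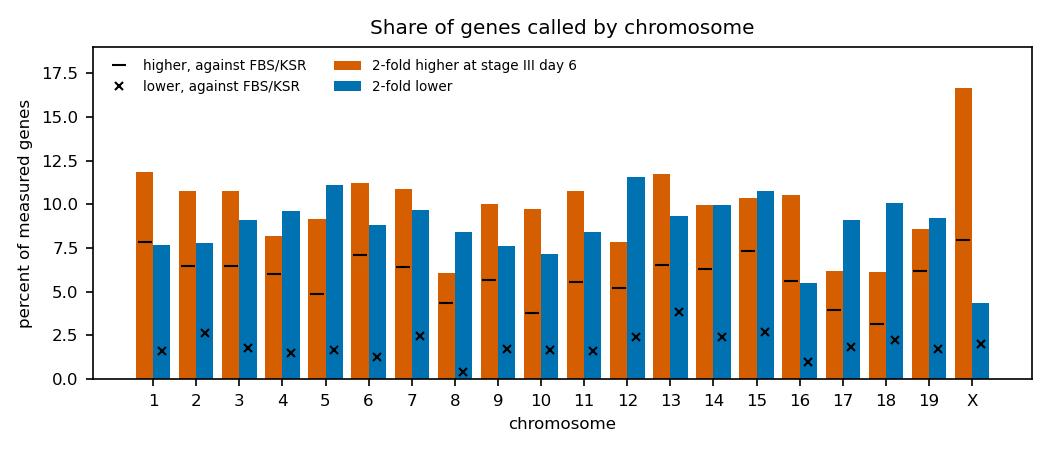
Percent of measured genes on each chromosome (horizontal axis) that were 2-fold higher (orange) or lower (blue) at stage III day 6 than in N2B27, with the same shares against FBS/KSR as dashes and crosses. Chromosome X has 16.7% higher and 4.37% lower, where the autosomes have 6.09% to 11.8% higher.

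Germline genes had 8 of 38 measured members higher and 6 lower (median 0.14). Tex19.1, which guards the placenta and germ cells against transposons, stood at 57.3 FPKM in N2B27, 69.4 in FBS/KSR and 147 at day 6 (2.56-fold higher than N2B27, 2.30 to 2.84). Sycp3, a protein of the meiotic chromosome axis, stood at 2.58, 2.24 and 8.08 FPKM (3.13-fold higher, 1.92 to 5.31).

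Markers of other cell types were mostly low, but not all. Cd68, of the macrophage markers, stood at 27.1 FPKM in N2B27, 87.3 in FBS/KSR and 67.4 at day 6. Cdh5, of the endothelial markers, stood at 7.19, 35.1 and 22.7 FPKM in the same order. Both were called higher than in N2B27 and made most of the day 6 sum of their markers. Of 5 measured endothelial markers 2 were higher and 1 lower. Of the blood and macrophage list 6 of 11 measured members were higher and 1 lower, while Ptprc, the marker of all blood cells, and Hbb-bs, a globin gene, had 0 reads at day 6. Csf1r, a receptor of macrophages and of trophoblast, stood at 0.402 FPKM in N2B27, 4.03 in FBS/KSR and 11.6 at day 6 (28.7-fold higher than N2B27, 16.6 to 54.3). Endothelial genes had 2 of 13 higher and 3 lower, with Pecam1 at 0.644, 10.5 and 2.76 FPKM. In the libraries labelled CiPSCs and ESCs Pecam1 stood at 50.8 and 50.7 FPKM, so it does not mark endothelium alone in this series. Neural genes had 0 of 9 higher and 3 lower, and Nefm, a neurofilament chain, stood at 18.8, 4.92 and 0.658 FPKM. The summed endothelial, macrophage and blood, and neural markers were 32.1, 81.1 and 7.15 FPKM at day 6, against 20.6, 28.6 and 8.49 in N2B27.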

How the data were processed

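Bulk RNA-seq was deposited by the authors as 1 table of FPKM values for 35275 entries and 14 libraries, made from total RNA with an NEBNext Ultra kit, per the labels. The submitters' processing notes name the build mm10, FastQC, Bowtie2, Bismark and Cell Ranger 2.0.1 without saying which made these values. The aligner, the counting, the annotation and the strand setting of the bulk data are not given there or in the labels, so antisense and overlapping genes cannot be separated. Whole reads and library sizes were recovered from the FPKM steps for 23176 of 23178 entries above 0 in at least 2 libraries, with gene lengths whole within 0.001 base. The recovery was tested on simulated data. Genes reaching 1 FPKM in at least 1 of both libraries were compared on log2(FPKM+1), with a pseudocount of 1, in Python 3.11.15 with SciPy 1.17.1; figures were drawn with matplotlib 3.10.9. No test and no model was run, since each group is 1 library. Folds are ratios of FPKM with exact 95% intervals of the reads.

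The members and the 66 gene lists (1630 entries) were chosen with earlier results of these data known. Genes were named by rule: key genes of the lineages, up to 6 members of a list with the largest folds, the 20 largest positive and negative differences at 10 FPKM or more, 12 factors each way, members of described runs and families, and defining markers. Promoter windows came from a RefSeq table of GRCm38.p6. The methylation and single-cell samples were not used here.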

Additional observations from a re-analysis of the deposited data

How the results depend on the processing

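With a pseudocount of 5 the counts were 653 higher and 504 lower in place of 1439 and 1293, with FBS/KSR as the base 839 and 279, and beyond both stage II libraries 450 and 87. Higher genes made up 52.7% of the calls against N2B27, 75.0% against FBS/KSR and 83.8% beyond both, and 51.2% to 56.7% under the other settings. A pseudocount of 0.1, a filter at 5 FPKM, median-of-ratios scaling and rescaling to TPM kept both counts within 1.5 times. Leaving out the filter could not change the counts. With a pseudocount of 1, a gene below 1 FPKM in both libraries cannot reach 2-fold. The median over all genes was -0.04, 0.01 with median-of-ratios scaling and 0.02 with TPM, and no gene given a fold here turned sign with median-of-ratios scaling. List medians moved by more than the median half-width of their members' counting intervals for 11 of the 66 lists with a pseudocount of 5, 10 with no filter, 8 with the filter at 5 FPKM, 3 with a pseudocount of 0.1, 3 with TPM and 2 with median-of-ratios scaling. Of these, the medians that moved by over 1.5 times or turned went with a pseudocount of 5 for trophoblast giant cell genes 2.28 to 1.15, interferon effector genes 1.63 to 1.02, chemokines and cytokines 1.40 to 0.79, Wnt target and feedback genes -0.86 to -0.40, Hedgehog genes -0.76 to -0.35, fibrillar collagens and fibroblast genes 1.05 to 0.49, X inactivation genes 0.42 to 0.19 and keratins 1.56 to 0.76. With no filter they went for ectoplacental cone and spongiotrophoblast genes 0.93 to 0.36, trophoblast giant cell genes 2.28 to 1.26, labyrinth and syncytiotrophoblast genes 1.07 to 0.48, Hedgehog genes -0.76 to -0.14, smooth muscle type contractile genes 1.57 to 0.91, endothelial genes -0.51 to -0.052, X inactivation genes 0.42 to 0.25, keratins 1.56 to 0.66, integrins and cadherins 0.42 to 0.076 and laminins and basement membrane genes 1.02 to 0.36. With the filter at 5 FPKM they went for ectoplacental cone and spongiotrophoblast genes 0.93 to 1.44, definitive endoderm and gut genes 0.25 to -0.22, FGF ligands and receptors 0.44 to -0.55, Notch genes -0.59 to -0.96, Hedgehog genes -0.76 to -1.37 and carriers of glucose and amino acids -0.22 to 0.23. On the FBS/KSR base 30 list medians moved by less than that half-width, and 23 had the opposite sign, of which 3 had been at least 1 in size: giant cell genes to -0.35, 2-cell-stage genes to 0.15 and laminins to -0.57. Of the genes given values, 35 had the opposite sign on that base, 29 of them called against N2B27 and 6 not (Cdh1, Cdx2, Epcam, Gata6, Gcm1 and Igf2). Called genes lower than in N2B27 but above FBS/KSR had log2 differences from FBS/KSR of Cma2 2.33, Crabp1 1.35, Dhh 0.088, Fabp5 0.72, Fads2 0.35, Fgfrl1 0.25, Hey1 0.026, Irf8 0.0084, Lama5 0.10, Nkd1 0.082, Phgdh 0.30, Plk2 0.86, S100g 1.28, Sp5 0.40, Twist1 0.55 and Usp17le 0.57. Called genes higher than in N2B27 but below FBS/KSR had Ankrd1 -0.024, Ctgf -0.24, Ctsj -5.04, Fgb -0.032, Fgf10 -0.81, Fgg -1.34, Fosb -1.18, Foxq1 -0.72, Lamb1 -0.82, Lamc1 -0.90, Pecam1 -1.61, Prl3d1 -1.39 and Sparc -0.73. The FBS/KSR library differs from N2B27 in medium, and its label names no feeder layer; the parts of medium and feeders cannot be told apart, and the cause of these turns was not tested. No paired analysis was possible because each group is 1 library, and for the same reason no library could be left out. Depth limits genes with few reads, and folds against 0 reads are bounds. Near-identical family members may share reads.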
